A study of Mus musculus with 16 samples.

Results

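The collagen genes were taken as every row of the deposited count table whose symbol has the form Col, a type number, a and a chain number. That rule found 44 of the 20295 genes. By type number they were split into 6 fibrillar collagens (types 1, 3 and 5), 8 basement membrane collagens (types 4, 15 and 18) and 30 other collagens. The last class is mixed and also holds the fibril-forming collagens of types 2, 11, 24 and 27.

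RNA-seq counts came from brown adipocytes differentiated in culture from mouse brown preadipocytes immortalised with SV40 large T antigen (BAT-LgT), a single line, harvested at day 7 of differentiation. All groups had a pretreatment of 1 h followed by 3 h of stimulation. SR-3420 is a ligand of ABHD5 that triggers lipolysis, triacsin C (TC) blocks acyl-CoA synthetases and etomoxir (ETO) blocks the entry of fatty acids into mitochondria for oxidation. The dose of SR-3420 in the sample labels was 10 µM, and the published legend of this experiment gives a higher one. Vehicle cells (2 samples) received DMSO at both steps. SR-3420 cells (2 samples) had DMSO and then 10 µM SR-3420. The TC group (3 samples) had 5 µM triacsin C with no SR-3420, and TC+SR-3420 cells (3 samples) had both agents. The ETO group (3 samples) had 50 µM etomoxir with no SR-3420, and ETO+SR-3420 cells (3 samples) had both. Total counts per sample ran from 9452861 to 25670624, with a median of 13602886.

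Collagens are secreted triple helices of 3 chains that give tissues their tensile strength. Fibrillar collagens pack into banded fibers, type IV forms the flat network under epithelia and around each adipocyte, and types XV and XVIII link that network to its surroundings. A fat cell enlarges and shrinks inside a basement membrane shell, and preadipocytes are known to change from a fibrillar to a basement membrane collagen pattern as they differentiate. In bulk RNA, fewer cells of a type and less RNA per cell cannot be told apart.

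Markers were read first, in counts scaled to library size by the trimmed mean of M values (TMM), called normalized CPM from here on. All 8 adipocyte markers were measured, and Cfd, the adipokine adipsin, was the most abundant. Their summed level averaged 30100 in vehicle, 24700 in SR-3420, 34600 in TC, 11100 in TC+SR-3420, 28100 in ETO and 13700 in ETO+SR-3420. Of the 7 brown adipocyte markers, Cox8b was the most abundant, and the list summed to between 99.3 and 265 per sample. Ucp1, the uncoupling protein that defines brown fat, stayed between 0.461 and 3.66 normalized CPM, and Dio2 did not exceed 0.127. The other 5 ranged from 34.1 to 178 normalized CPM (Cox8b), 22.3 to 85.8 (Ppargc1a), 5.99 to 40.1 (Prdm16), 8.29 to 35.3 (Cidea) and 7.84 to 18.4 (Elovl3). Brown adipocyte is the name the labels give.

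All 8 preadipocyte and fibroblast markers were detected. Their sum averaged 914 in vehicle, 1470 in SR-3420, 1190 in TC, 1730 in TC+SR-3420, 886 in ETO and 1550 in ETO+SR-3420, with the calcium-binding protein S100a4 the most abundant. The 4 smooth muscle and myofibroblast markers, led by Acta2 (smooth muscle actin), averaged 744, 1460, 1080, 1600, 796 and 1350 in the same order of groups. Both sums were higher in every SR-3420 sample than in the vehicle samples. Endothelial markers summed to between 0.86 and 3.58 normalized CPM, with Kdr the most abundant and Pecam1, the defining marker, at or near 0 in all samples. Macrophage markers summed to between 3.97 and 17.9, led by Cd68, and Ptprc stayed under 1 normalized CPM in each sample.

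Levels of different collagens were compared per kilobase of counted length. Type VI collagen, which makes beaded filaments near the cell surface, led the list. Col6a1 averaged 678 ± 142 CPM per kb in vehicle (SD, n = 2) and Col6a2 averaged 410 ± 88.8. Next came Col4a1, a chain of the general basement membrane network, at 244 ± 13.7 CPM per kb, and Col1a1, the major chain of type I fibers, at 233 ± 34.5. Those 4 were followed by Col4a2 at 158 ± 16.3, Col1a2 at 143 ± 0.798 and Col6a3 at 141 ± 6.71 CPM per kb. The level of Col4a1 differed from that of Col1a1 by less than the spread between samples, and so did Col4a2 from Col1a2 and Col1a2 from Col6a3. Col5a2, Col3a1 and Col5a1 formed the next step, at 53.2 ± 3.90, 52.3 ± 3.46 and 40.7 ± 2.72 CPM per kb in vehicle. Only 1 read was kept per position and read length before counting, which can hold down the counts of densely covered genes. The highest coverage among collagens was 28.4 counts per counted base, in Col6a1, and the effect of this rule was not tested.

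**Figure D1:**
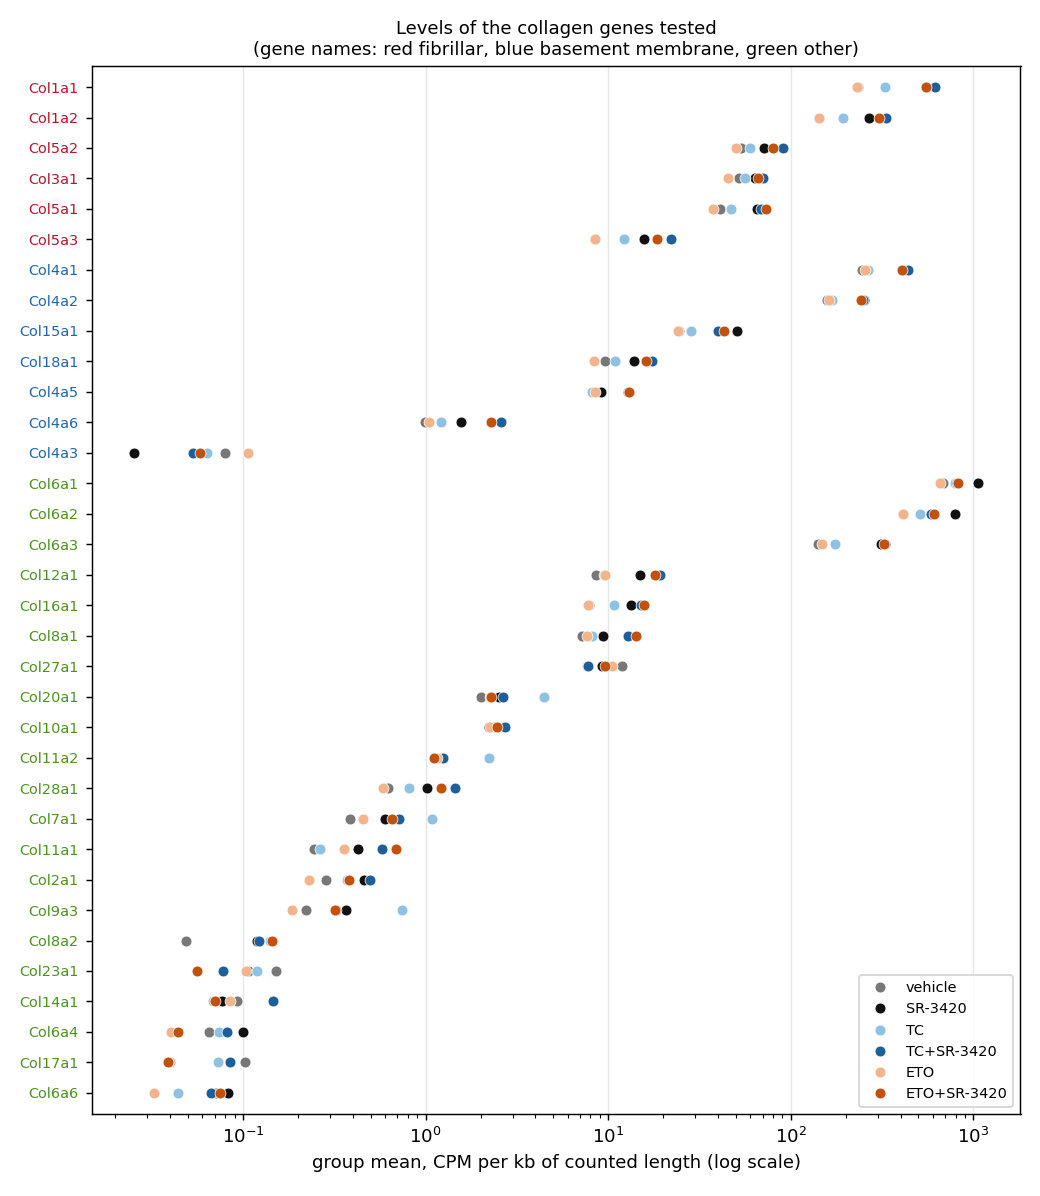
Mean level of each tested collagen in the 6 groups, in normalized CPM per kb of counted length on a log scale, with points colored by group and gene names by class. The genes span from Col6a1, at 678 CPM per kb in vehicle, down to Col8a2, at 0.0488.

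The filter on low counts kept 34 collagens: 6 fibrillar, 7 basement membrane and 21 other. The 10 that were not tested were Col4a4, Col6a5, Col9a1, Col9a2, Col13a1, Col19a1, Col22a1, Col24a1, Col25a1 and Col26a1. None of these 10 had more than 10 counts in a sample. Col4a3 did pass, on 2 to 16 counts per sample, so the alternative basement membrane network of Col4a3 and Col4a4 was close to the detection limit. Col9a3 and Col10a1 each overlap a gene on the opposite strand (Tcfl5 by 229 bases and Nt5dc1 by 7105 bases). Whether counting was strand-specific is not stated, so their counts could include reads of the neighbor.

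Type IV genes lie in head-to-head pairs in mouse build mm9. Col4a1 (NM_009931, minus strand) and Col4a2 (NM_009932, plus strand) start 2 bases apart on chromosome 8 by their RefSeq ends, while in GENCODE M1 the ends overlap. Col4a4 and Col4a3 start 71 bases apart on chromosome 1, and Col4a6 and Col4a5 start 1342 bases apart on the X chromosome. The ratio of Col4a1 to Col4a2, in normalized CPM, ranged from 1.51 to 1.93 over the 16 samples. Type I chains lie on different chromosomes, and the ratio of Col1a1 to Col1a2 ranged from 1.08 to 2.09. Col6a1 and Col6a2, in tandem on chromosome 10 with 85387 bases between them, kept a ratio of 1.32 to 1.81. None of the 3 ratios was fixed across samples.

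Collagen exons were rich in G and C, with a median of 55.2% over the tested collagens (44.6% to 61.9%) against 50.3% over the 11998 tested genes with a value (93.8% of those tested). Across the 24 collagens whose normalized counts averaged at least 50, the Pearson correlation of GC content with the log2 fold change was 0.03 for SR-3420 against vehicle, 0.33 for TC against vehicle, -0.42 for TC+SR-3420 against TC and -0.20 for ETO+SR-3420 against ETO. These are correlations across genes of the same libraries, and genes are not independent replicates. Exon number differed widely between collagens. The longest coding transcript of Col1a1 has 51 exons, that of Col1a2 has 52 and that of Col7a1 has 119. By the same measure Col10a1 has 3 exons, and Col8a1 and Col8a2 have 4 each.

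The 250 bases before the annotated start were searched on both strands for CCAAT, for GGGCGG, for TATAAA, for TGACGTCA and for a pair of AGGTCA repeats with 1 base between them. The window of Col5a3 (NM_016919) is shown because this chain passed the test in 4 comparisons. It is from build mm9, at chr9:20619479-20619728 on the minus strand, written 5′ to 3′ on the gene's strand. Capitals mark matches to the motifs or to their reverse complements.
Col5a3: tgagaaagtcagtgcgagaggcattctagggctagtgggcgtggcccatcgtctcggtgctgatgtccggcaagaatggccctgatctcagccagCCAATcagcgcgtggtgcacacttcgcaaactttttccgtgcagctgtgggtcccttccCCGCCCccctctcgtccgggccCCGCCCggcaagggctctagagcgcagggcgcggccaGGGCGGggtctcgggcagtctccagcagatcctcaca

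Col1a2 has TATAAA with its last base 23 bases before its RefSeq start, though GENCODE M1 has transcripts that begin further upstream. Col5a3 has 3 matches to GGGCGG and none to the TATA motif. The TATAAA motif occurred in 6 of the 34 tested collagens (17.6%), against 6.29% of the windows of all 12786 tested genes. CCAAT occurred in 13 collagens (38.2% against 36.1%) and GGGCGG in 22 (64.7% against 60.3%). TGACGTCA, the cAMP response element, was in 0 of the 34 windows (2.81% of all tested), and the AGGTCA repeat, a form bound by PPARs, was in 0 as well (0.0313%). A match here is a string of letters and not a measured binding site.

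The share of all counts that fell on collagen genes averaged 1.18% ± 0.0499 in vehicle (SD, n = 2) and 1.93% ± 0.212 in SR-3420 (n = 2). It was 1.34% ± 0.141 in TC and 1.96% ± 0.257 in TC+SR-3420 (n = 3 each). With etomoxir the share was 1.21% ± 0.289 without and 1.96% ± 0.458 with SR-3420 (n = 3 each). The ETO and ETO+SR-3420 samples overlapped, since the highest ETO sample (1.503%, replicate 1) stood above the lowest ETO+SR-3420 sample (1.482%, replicate 3). In the other SR-3420 pairs of groups the shares did not overlap. For replicates 1, 2 and 3 the share was 1.503%, 1.21% and 0.924% in ETO. It was 2.395%, 1.992% and 1.482% in ETO+SR-3420, higher at each number. In every group the share fell as the replicate number rose, and the labels do not say what a number marks. Type VI genes alone took 0.602% and 0.518% of counts in vehicle and 1.06% and 0.803% in SR-3420.

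**Figure D2:**
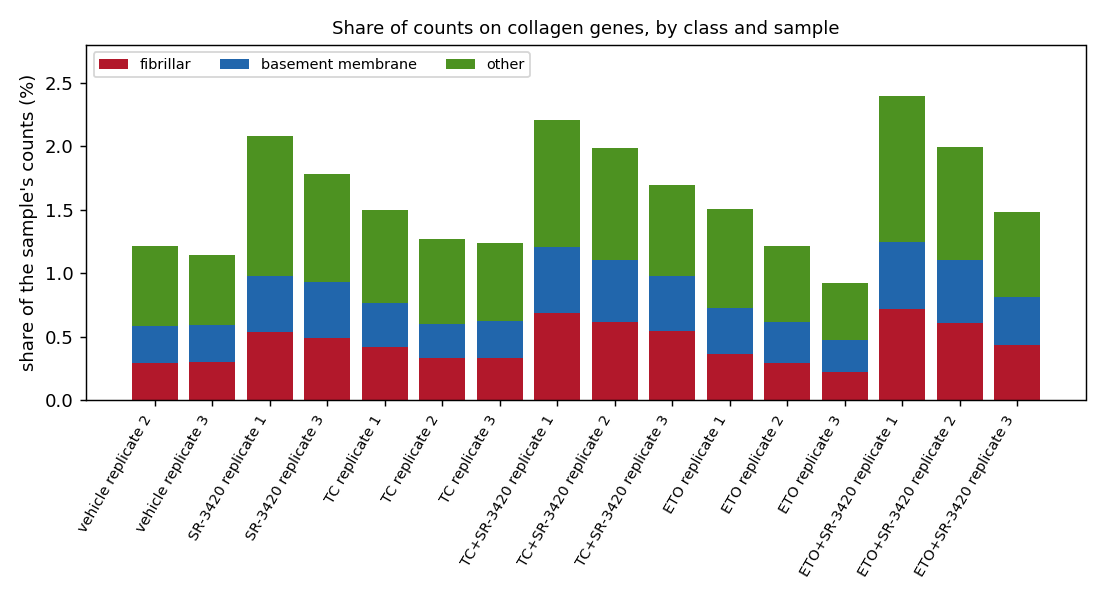
Share of each sample's counts on collagen genes, in percent, stacked by class (fibrillar, basement membrane and other) for the 16 samples. The bars run from 0.924% in 1 ETO sample to 2.395% in 1 ETO+SR-3420 sample.

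Among the fibrillar genes, Col1a1 encodes the major chain of type I collagen. It stood at 1210 and 981 normalized CPM in vehicle, 3104 and 2086 in SR-3420, 1738, 1600 and 1277 in TC, 3541, 2904 and 2195 in TC+SR-3420, 1563, 1057 and 612 in ETO, and 3667, 2503 and 1613 in ETO+SR-3420. Each SR-3420 group lay wholly above its own control group, but samples within a group differed widely, from 612 to 1563 in ETO. Col1a2, the other type I chain, measured 734 and 739 in vehicle, 1488 and 1283 in SR-3420, 1148, 914 and 912 in TC, 1866, 1657 and 1570 in TC+SR-3420, 904, 727 and 568 in ETO, and 1886, 1599 and 1225 in ETO+SR-3420. Again no SR-3420 sample fell among its controls, and the spread was narrower than that of Col1a1.

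Type V chains start fibrils and limit their width. Col5a3 measured 51.3 and 52.4 normalized CPM in vehicle, 90.2 and 102 in SR-3420, 77.1, 69.3 and 75.5 in TC, 131, 133 and 138 in TC+SR-3420, 54.7, 53.1 and 45.9 in ETO, and 117, 123 and 96.3 in ETO+SR-3420. Vehicle and ETO overlapped, TC lay above both, and the 3 groups with SR-3420 lay above all groups without it. Col5a1 stood at 358 and 326 normalized CPM in vehicle, 586 and 513 in SR-3420, 470, 366 and 357 in TC, 635, 592 and 500 in TC+SR-3420, 390, 322 and 227 in ETO, and 767, 627 and 453 in ETO+SR-3420. Samples with SR-3420 were above their own controls in each pair of groups. Col3a1, the type III chain that joins type I fibers, changed over a smaller range, from 227 in an ETO sample to 396 in a TC+SR-3420 sample.

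Col4a1 and Col4a2 form the basement membrane network found in most tissues. Col4a1 measured 1678 and 1550 normalized CPM in vehicle, 2795 and 2552 in SR-3420, 1980, 1635 and 1659 in TC, 3162, 2940 and 2641 in TC+SR-3420, 1979, 1678 and 1385 in ETO, and 3098, 2791 and 2220 in ETO+SR-3420. All 8 samples with SR-3420 were above all 8 without it. Col4a2 measured 1092 and 944 in vehicle, 1793 and 1448 in SR-3420, 1225, 1029 and 972 in TC, 1846, 1602 and 1372 in TC+SR-3420, 1311, 1062 and 762 in ETO, and 1929, 1562 and 1158 in ETO+SR-3420. Its ETO and ETO+SR-3420 groups overlapped, though each ETO+SR-3420 sample was above the ETO sample of the same replicate number.

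Col15a1 encodes a proteoglycan-type collagen that bridges basement membranes and fibers. It measured 126 and 133 normalized CPM in vehicle, 283 and 257 in SR-3420, 172, 140 and 144 in TC, 238, 209 and 188 in TC+SR-3420, 160, 125 and 98.3 in ETO, and 274, 217 and 196 in ETO+SR-3420. The SR-3420 samples without inhibitor were among the highest. Col18a1, the source of endostatin, measured 53.5 and 43.6 in vehicle, 70.6 and 69.8 in SR-3420, 57.1, 59.1 and 48.5 in TC, 84.7, 98.4 and 78.7 in TC+SR-3420, 47.3, 48.5 and 30.8 in ETO, and 82.5, 92.4 and 68.6 in ETO+SR-3420. No SR-3420 sample of Col18a1 overlapped a sample without it. Col4a6, a minor type IV chain, measured 6.14 and 7.01 in vehicle, 8.96 and 11.9 in SR-3420, 8.92, 7.38 and 8.04 in TC, 16.8, 16.7 and 17.9 in TC+SR-3420, 7.70, 7.74 and 5.30 in ETO, and 16.9, 16.5 and 12.4 in ETO+SR-3420. The samples given an inhibitor and SR-3420 were above all others.

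Of the other collagens, the 3 main type VI chains are thought to assemble together, yet their values spread differently. Col6a3 measured 1314 and 1228 normalized CPM in vehicle, 3094 and 2564 in SR-3420, 1796, 1460 and 1460 in TC, 3416, 2975 and 2473 in TC+SR-3420, 1679, 1323 and 1020 in ETO, and 3571, 3087 and 2145 in ETO+SR-3420. All samples with SR-3420 were above all samples without it. Col6a1 measured 3096 and 2298 in vehicle, 5082 and 3374 in SR-3420, 3294, 3407 and 2810 in TC, 3807, 3277 and 2560 in TC+SR-3420, 3554, 2491 and 1793 in ETO, and 4529, 2929 and 2404 in ETO+SR-3420. Its groups overlapped both with triacsin C and with etomoxir. By replicate number, each ETO+SR-3420 sample was above its ETO sample, while with triacsin C this held for replicate 1 alone.

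Col12a1 encodes a collagen that coats the surface of type I fibers. It measured 89.2 and 112 normalized CPM in vehicle, 171 and 180 in SR-3420, 145, 83.8 and 106 in TC, 250, 199 and 227 in TC+SR-3420, 123, 105 and 109 in ETO, and 210, 226 and 198 in ETO+SR-3420. Samples with and without SR-3420 did not overlap. Col20a1, of the same fibril-associated family, measured 8.77 and 8.02 in vehicle, 11.4 and 9.71 in SR-3420, 19.6, 20.4 and 15.9 in TC, 13.3, 11.6 and 8.44 in TC+SR-3420, 11.8, 9.08 and 7.29 in ETO, and 10.6, 10.2 and 7.89 in ETO+SR-3420. Only its TC samples stood apart, above all others.

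Col7a1, the anchoring fibril collagen of skin, also peaked in TC. It measured 4.39 and 2.67 normalized CPM in vehicle, 5.42 and 5.52 in SR-3420, 10.97, 9.85 and 9.03 in TC, 8.32, 7.08 and 4.32 in TC+SR-3420, 5.07, 4.26 and 3.15 in ETO, and 7.23, 6.06 and 4.65 in ETO+SR-3420. Col27a1, a fibril-forming cartilage collagen, measured 102 and 80.5 in vehicle, 79.0 and 62.4 in SR-3420, 61.0, 65.7 and 49.0 in TC, 59.0, 63.8 and 55.0 in TC+SR-3420, 83.4, 86.8 and 70.2 in ETO, and 78.4, 63.2 and 78.7 in ETO+SR-3420. TC samples of Col27a1 lay below both vehicle samples.

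**Figure D3:**
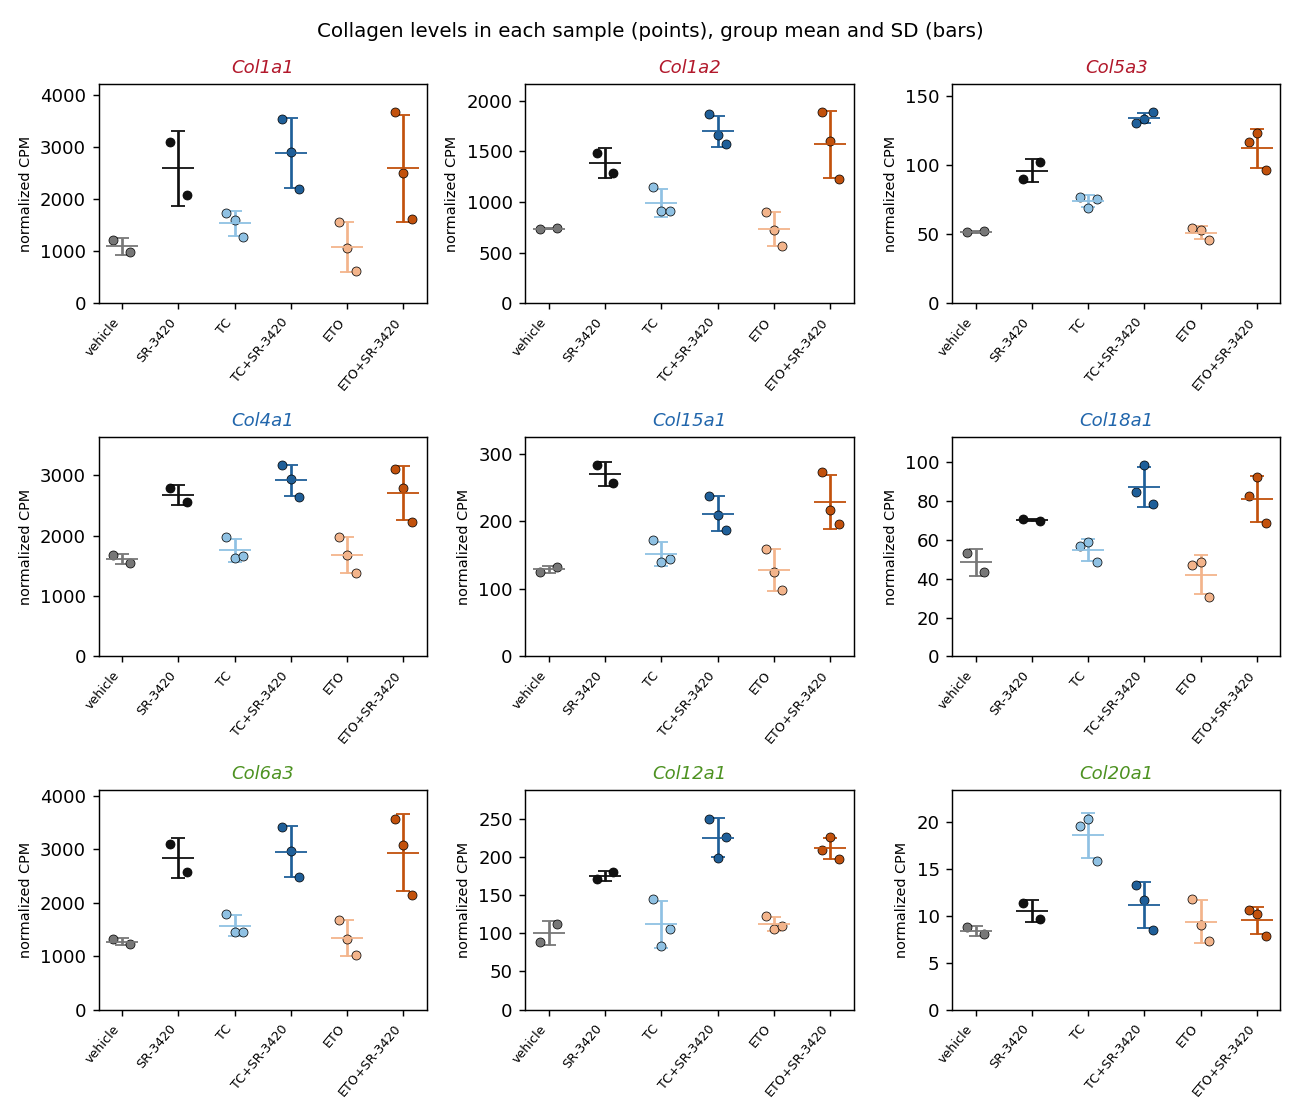
Normalized CPM of 9 collagens in each sample (points), with the group mean and SD (bars), in the 6 groups and on linear axes from 0. Col4a1, Col6a3 and Col12a1 show all 8 samples with SR-3420 above the 8 without, and Col20a1 is highest in TC, at 15.9 to 20.4.

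SR-3420 against vehicle asks what triggered lipolysis does without an inhibitor. Collagens from each of the 3 classes rose. Of 34 tested, 6 rose, 2 in each class, by the quasi-likelihood test of edgeR (Benjamini-Hochberg), against 4.75% of all tested genes. The count of collagens that fell was 0 by edgeR and 0 by DESeq2, against 2.79% of all genes, and 17 collagens in either direction had an unadjusted p under 0.05, with 2788 of all 12786 genes. DESeq2 called 9 collagens higher (7.01% of all genes). The median log2 fold change was 0.79 for fibrillar, 0.66 for basement membrane and 0.62 for other collagens, against -0.004 for all genes. In 22 collagens both SR-3420 samples were above both vehicle samples, which was so for 22.8% of all genes, and in 2 collagens both were below, against 21.2%.

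Col6a3 rose 2.23-fold (log2 fold change 1.16, SE 0.27, adjusted p = 0.0188 by the quasi-likelihood test of edgeR (Benjamini-Hochberg), higher in 2 of 2 samples). Col15a1 rose 2.09-fold (1.06, SE 0.22, adjusted p = 0.0102, same edgeR test with Benjamini-Hochberg, 2 of 2 samples). Type I chain Col1a2 rose 1.88-fold (0.91, SE 0.23, adjusted p = 0.0308, edgeR quasi-likelihood with Benjamini-Hochberg, 2 of 2 samples). Col5a3 had the lowest p of the collagens here, with a 1.85-fold rise (0.89, SE 0.14, adjusted p = 0.00235, edgeR quasi-likelihood with Benjamini-Hochberg, 2 of 2 samples). Col12a1 rose 1.75-fold (0.80, SE 0.21, adjusted p = 0.0372) and Col4a1 1.66-fold (0.73, SE 0.20, adjusted p = 0.0427), each in 2 of 2 samples by the same edgeR test with Benjamini-Hochberg. The largest fold change of a fibrillar chain was that of Col1a1, 2.37-fold, which missed the threshold (log2 fold change 1.24, SE 0.42, adjusted p = 0.0946, edgeR quasi-likelihood with Benjamini-Hochberg, 2 of 2 samples).

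Vehicle held replicates 2 and 3, and SR-3420 held replicates 1 and 3. Each group set against vehicle thus held a replicate 1, which vehicle lacked. With a block for the replicate number, the collagen median here was 0.59, against 0.66 without it. With 2 samples a group, the calls depended on single libraries. Without vehicle replicate 2, vehicle replicate 3 or SR-3420 replicate 1, 1 of the 6 calls was kept (Col5a3), and 3 were kept without SR-3420 replicate 3. An edgeR model of these 4 samples alone called 0 of 31 collagens and 0.37% of all genes higher. With the correction for GC content, tried after the data were seen, Col5a3 (log2 fold change 0.65) and Col1a2 (1.05) missed the threshold, while the count of collagens higher was 9 (11.3% of all genes). Col12a1 missed it with library totals alone (0.68) and with no filter (0.79). In the same comparison 1 of 8 adipocyte markers fell (Pparg) and 1 of 8 preadipocyte and fibroblast markers rose (S100a4). Of all tested genes 2.79% fell and 4.75% rose. Of the 6 tested brown adipocyte markers 1 fell (Cox8b), and of 4 smooth muscle markers 1 rose (Cnn1). What part the mix or state of the cells had in the collagen rise was not tested.

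TC against vehicle shows collagens with acyl-CoA synthesis blocked and no added lipolysis. Few collagens passed the test. Of 34 collagens, 3 rose (4.77% of all tested genes did) and 1 fell (6.94% did) by the quasi-likelihood test of edgeR (Benjamini-Hochberg), and DESeq2 called 3 higher and 1 lower (6.82% and 9.1% of all genes). No basement membrane collagen passed, in either direction or by DESeq2, and 0 of the 7 had an unadjusted p under 0.05. The medians were 0.32 for fibrillar, 0.12 for basement membrane and 0.23 for other collagens, against 0.07 for all genes. In 11 collagens all TC samples lay above vehicle (24.4% of all genes) and in 1 all lay below (18.9%).

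Col7a1 rose 2.79-fold (log2 fold change 1.48, SE 0.32, adjusted p = 0.00758, edgeR quasi-likelihood with Benjamini-Hochberg, higher in 3 of 3 samples). Col20a1 rose 2.21-fold (1.145, SE 0.25, adjusted p = 0.00758, edgeR quasi-likelihood with Benjamini-Hochberg, 3 of 3 samples). Col5a3 rose 1.43-fold (0.51, SE 0.13, adjusted p = 0.023, edgeR quasi-likelihood with Benjamini-Hochberg, 3 of 3 samples). Col27a1 fell to 0.642 of vehicle (-0.64, SE 0.17, adjusted p = 0.028, edgeR quasi-likelihood with Benjamini-Hochberg, lower in 3 of 3 samples). Without vehicle replicate 2, Col7a1 alone of these 4 stayed past the threshold (1 higher, 0 lower), and without vehicle replicate 3 it was Col27a1 alone (0 higher, 1 lower). Col27a1 also missed it without TC replicate 1 (log2 fold change -0.67, adjusted p = 0.0626) or TC replicate 3 (-0.53, adjusted p = 0.111), and Col5a3 without either (0.48, adjusted p = 0.072, and 0.50, adjusted p = 0.0685), all by edgeR with Benjamini-Hochberg. Over all alternatives the adjusted p ran from 0.00126 to 0.226 for Col27a1 and from 0.00155 to 0.664 for Col5a3. Corrected for GC content, which was tried after the data were seen, Col5a3 had a log2 fold change of 0.19 (adjusted p = 0.664, edgeR with Benjamini-Hochberg). Among the markers, 1 of 8 adipocyte genes (Pparg) and 2 of 6 brown adipocyte genes (Prdm16 and Ppargc1a) fell. Higher were 1 of 4 smooth muscle genes (Cnn1) and 1 of 2 tested macrophage genes (Cd68, a lysosomal protein). Of all tested genes 6.94% fell and 4.77% rose. What part the markers had in these collagen values was not tested.

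ETO against vehicle shows collagens with fatty acid oxidation blocked and no added lipolysis. No collagen passed the threshold. The count was 0 of 34 in each direction by the quasi-likelihood test of edgeR (Benjamini-Hochberg) and 0 by DESeq2, and 1 (Col8a2) had an unadjusted p under 0.05, as did 283 of all 12786 genes. Over all genes, 0.0156% rose and 0.00782% fell. The median was -0.05 for fibrillar, 0.04 for basement membrane and -0.05 for other collagens, against 0.01 for all genes. The median over all collagens was -0.02, and its sign turned with library totals alone as scaling (0.02). With a block for the replicate number that median was -0.13. The 95% interval of the log2 fold change was -0.30 to 0.27 for Col5a3 and -0.84 to 0.79 for Col1a1. A change of Col1a1 inside its interval thus remains possible. In 2 collagens all ETO samples lay above vehicle (4.54% of all genes) and in 1 all lay below (5.19%). Of the 29 tested genes of the 6 cell type lists, 0 passed by edgeR and 0 by DESeq2, and 1 had an unadjusted p under 0.05.

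TC+SR-3420 against TC asks whether collagens respond to lipolysis when acyl-CoA cannot be made. Most basement membrane chains, 3 fibrillar chains and Col6a3 rose, and 2 minor collagens fell. Of 34 collagens, 12 rose (17.3% of all tested genes did) and 2 fell (19.7% did) by the quasi-likelihood test of edgeR (Benjamini-Hochberg). By class, 5 of 7 basement membrane, 3 of 6 fibrillar and 4 of 21 other collagens rose, and both that fell were in the last class. DESeq2 called 17 higher and 2 lower (20.4% and 20.7% of all genes). The medians were 0.65 for basement membrane, 0.69 for fibrillar and 0.19 for other collagens, against 0.02 for all genes. In 19 collagens all TC+SR-3420 samples lay above all TC samples (27.4% of all genes) and in 4 all lay below (28.5%).

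Col4a6 rose 2.11-fold (log2 fold change 1.08, SE 0.19, adjusted p = 0.000639, edgeR quasi-likelihood with Benjamini-Hochberg, higher in 3 of 3 samples). Col12a1 rose 2.02-fold (1.01, SE 0.17, adjusted p = 0.000614, edgeR quasi-likelihood with Benjamini-Hochberg, 3 of 3 samples). Col6a3 rose 1.88-fold (0.91, SE 0.22, adjusted p = 0.00506, edgeR quasi-likelihood with Benjamini-Hochberg, 3 of 3 samples). Col5a3 rose 1.81-fold (0.86, SE 0.12, adjusted p = 0.00011, edgeR quasi-likelihood with Benjamini-Hochberg, 3 of 3 samples). The others that rose were Col1a2 (1.71-fold), Col5a2 (1.52), Col4a1 (1.66), Col4a5 (1.57), Col15a1 (1.39), Col18a1 (1.59), Col28a1 (1.77) and Col11a1 (2.20). The call of Col15a1 was lost without TC replicate 2 or 3, without TC+SR-3420 replicate 1 or 2, and with at least 10 counts required in every sample. Col4a5 lost its call without TC replicate 2 or TC+SR-3420 replicate 3, and Col28a1 without the latter. The correction for GC content ended those of Col1a2 (log2 fold change 0.63) and Col5a2 (0.45). Col1a1 again had a large fold change with a p just past the threshold (1.87-fold, 0.91, SE 0.34, adjusted p = 0.0525, edgeR quasi-likelihood with Benjamini-Hochberg, higher in 3 of 3 samples). Col4a2, the partner of Col4a1, was close to it (1.49-fold, 0.58, SE 0.22, adjusted p = 0.053, edgeR quasi-likelihood with Benjamini-Hochberg, 3 of 3 samples).

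Col20a1 fell to 0.599 of TC (-0.74, SE 0.21, adjusted p = 0.0148, edgeR quasi-likelihood with Benjamini-Hochberg, lower in 3 of 3 samples). Col11a2, a cartilage fibril chain, measured 13.3, 14.5 and 9.71 normalized CPM in TC and 7.04, 8.94 and 4.88 in TC+SR-3420, with no overlap. It fell to 0.557 of TC (-0.84, SE 0.30, adjusted p = 0.0432, edgeR quasi-likelihood with Benjamini-Hochberg, 3 of 3 samples). Without TC replicate 2 or TC+SR-3420 replicate 3 neither call was kept, and without TC replicate 1 or TC+SR-3420 replicate 1 only that of Col20a1 was. In this comparison 7 of 8 adipocyte markers fell and 5 of 8 preadipocyte and fibroblast markers rose, Postn and Thy1 among them. Of all tested genes 19.7% fell and 17.3% rose. Of the brown adipocyte markers 1 of 6 rose (Prdm16) and 2 fell, 1 of 4 smooth muscle markers rose, the only tested endothelial marker rose (Kdr, at a mean of 1.5 normalized CPM), and 1 of 2 macrophage markers fell (Cd68). Cfd, for example, fell by 2.13 on the log2 scale (SE 0.48) and Adipoq by 1.68 (SE 0.21). What part these marker changes had in the collagen values was not tested.

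ETO+SR-3420 against ETO asks the same with fatty acid oxidation blocked. Here all 6 fibrillar collagens rose, with 5 of 7 basement membrane and 6 of 21 other collagens. That made 17 of 34 by the quasi-likelihood test of edgeR (Benjamini-Hochberg), against 12.5% of all tested genes. The count that fell was 0 by edgeR and 0 by DESeq2 (12.8% of all genes fell), and 20 collagens in either direction had an unadjusted p under 0.05, with 4758 of all 12786 genes. DESeq2 called 18 higher (14.7% of all genes). The medians were 1.04 for fibrillar, 0.69 for basement membrane and 0.52 for other collagens, against 0.01 for all genes. In 17 collagens the ETO+SR-3420 samples lay wholly above ETO (15.8% of all genes) and in 2 wholly below (16.5%).

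Col1a1 rose 2.41-fold (log2 fold change 1.27, SE 0.34, adjusted p = 0.016, edgeR quasi-likelihood with Benjamini-Hochberg, higher in 3 of 3 samples). Col5a3 rose 2.19-fold (1.13, SE 0.12, adjusted p = 3.17e-05, edgeR quasi-likelihood with Benjamini-Hochberg, 3 of 3 samples). Col1a2 rose 2.14-fold (1.099, SE 0.19, adjusted p = 0.0011, edgeR quasi-likelihood with Benjamini-Hochberg, 3 of 3 samples). Col5a1 rose 1.97-fold, Col5a2 1.59-fold and Col3a1 1.45-fold, the smallest rise of the class. Among basement membrane genes, Col4a6 rose 2.20-fold (1.14, SE 0.19, adjusted p = 0.000751, edgeR quasi-likelihood with Benjamini-Hochberg, 3 of 3 samples) and Col18a1 1.92-fold (0.94, SE 0.18, adjusted p = 0.00205, same edgeR test with Benjamini-Hochberg, 3 of 3 samples). Col15a1 rose 1.79-fold, Col4a1 1.61-fold and Col4a5 1.53-fold. Of the other collagens, Col6a3 (2.19-fold), Col28a1 (2.07), Col16a1 (2.02), Col11a1 (1.92), Col12a1 (1.88) and Col8a1 (1.85) rose. Fitted on these 6 samples alone, 8 of 28 were called (3 fibrillar, 2 basement membrane and 3 other) with 5.1% of all genes, and Col1a1, Col3a1 and Col5a1 were among the 9 that missed the threshold. Col1a1 also missed it without ETO replicate 2 (log2 fold change 1.25) or ETO+SR-3420 replicate 1 (0.93). Col4a5, Col8a1 and Col11a1 missed it with library totals alone, and when replicate 1 or 2 of ETO, or replicate 2 or 3 of ETO+SR-3420, was left out.

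Adipocyte markers fell here in 6 of 8 genes, with Cfd lower by 1.45 (SE 0.47) and Adipoq by 1.24 (SE 0.21) on the log2 scale. Of all tested genes 12.8% fell and 12.5% rose in this comparison. Preadipocyte and fibroblast markers rose in 5 of 8, of which Postn had the largest log2 fold change (0.94, SE 0.24). Of the 6 brown adipocyte markers 1 fell (Cox8b). Smooth muscle markers rose in 3 of 4 and fell in 1 (Myh11), Kdr rose, and 0 of the 2 tested macrophage markers passed by edgeR, by DESeq2 or at an unadjusted p under 0.05. Their part in the rise of the fibrillar collagens was not tested.

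**Figure D4:**
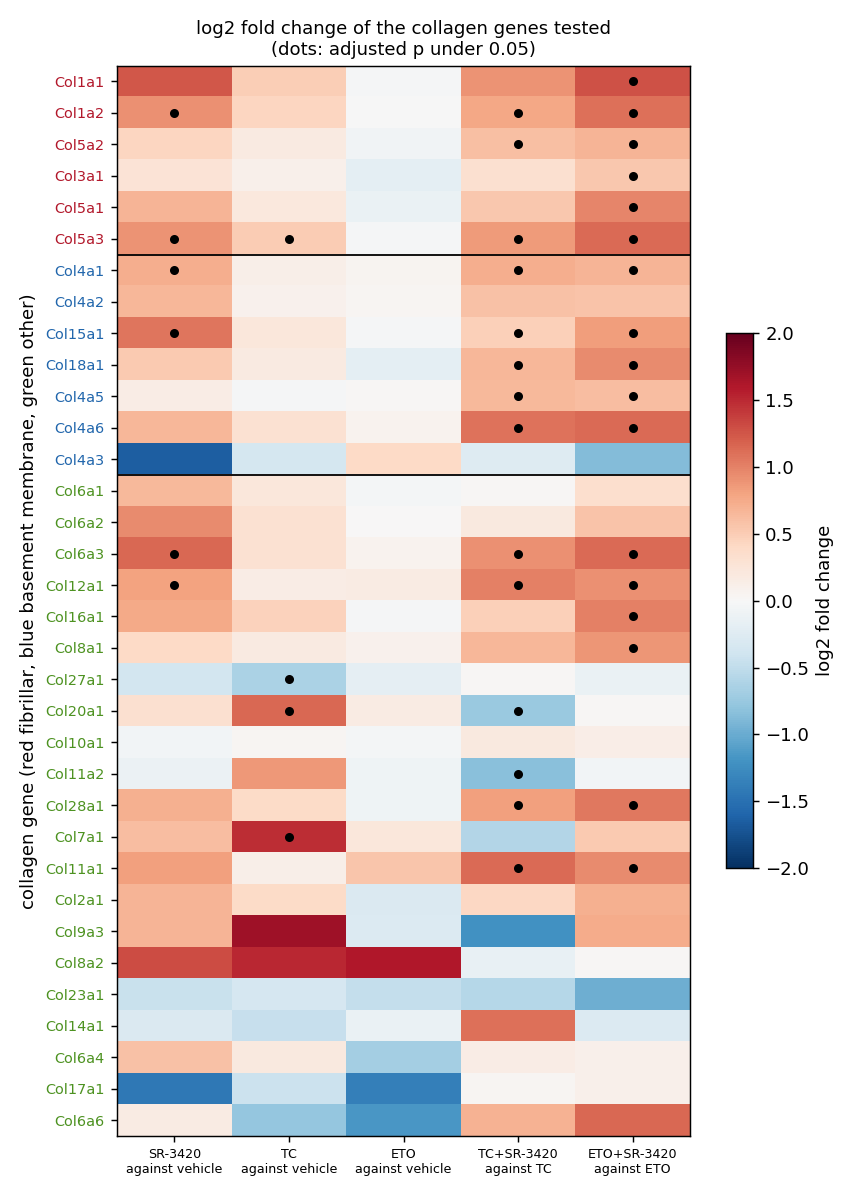
log2 fold change (color) of the 34 tested collagens in 5 comparisons, ordered by class and level, with a dot where the adjusted p was under 0.05. The 3 columns with SR-3420 hold 6, 14 and 17 dots, the TC column 4 and the ETO column 0.

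The chains of type VI collagen were called differently. Col6a3 rose in each of the 3 SR-3420 comparisons, while Col6a1 and Col6a2 passed in none of the 5 comparisons. Their log2 fold changes under etomoxir were 0.33 (SE 0.28) for Col6a1 and 0.56 (SE 0.34) for Col6a2, and under triacsin C 0.02 (SE 0.28) and 0.20 (SE 0.34). Without inhibitor the estimates were larger, 0.65 (SE 0.35) for Col6a1 and 0.945 (SE 0.42) for Col6a2. Both SR-3420 samples were above both vehicle samples for each chain. The difference of responses TC minus no inhibitor was -0.63 (95% interval -1.59 to 0.34) for Col6a1. For Col6a2 it was -0.745 (-1.91 to 0.42). Neither passed the threshold, so a larger response without inhibitor than with triacsin C is not shown. The within-group SD on the log2 scale was 0.37 for Col6a1 and 0.47 for Col6a2, against 0.26 for Col6a3 and 0.11 for Col5a3. The difference between chains was not tested.

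Whether an inhibitor altered the response to SR-3420 was tested as a difference of responses. In the model of group means alone, no collagen passed by the quasi-likelihood test of edgeR (Benjamini-Hochberg) in any of the 3 differences, and none did by DESeq2. For TC minus no inhibitor the count was 0 in each direction (1.24% of all genes higher and 1.27% lower), with 2 collagens (Col7a1 and Col20a1) and 2130 of all 12786 genes at an unadjusted p under 0.05. For ETO minus no inhibitor it was 0 in each direction (0% and 0% of all genes), with 0 collagens and 307 of all genes at an unadjusted p under 0.05. For TC minus ETO it was 0 in each direction (1.52% higher and 0.774% lower), with 3 collagens (Col7a1, Col9a3 and Col20a1) and 1596 of all genes at an unadjusted p under 0.05. So the larger number of calls under an inhibitor is not shown to be a larger response. With a block for the replicate number, tried as an alternative, Col7a1 and Col20a1 were lower in TC minus no inhibitor and TC minus ETO. Of all genes, 7.29% and 3.29% were lower there.

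The intervals tell how large a difference could be. For Col5a3 the difference TC minus no inhibitor was -0.03 (95% interval -0.43 to 0.37) and ETO minus no inhibitor was 0.24 (-0.16 to 0.64). For Col1a1 they were -0.34 (-1.49 to 0.81) and 0.02 (-1.13 to 1.18). Col20a1 had TC minus no inhibitor at -1.07 (-1.79 to -0.34, adjusted p = 0.121, edgeR quasi-likelihood with Benjamini-Hochberg). Both of its SR-3420 samples were above vehicle, and all 3 TC+SR-3420 samples were below TC. Col7a1 had the same pattern, at -1.21 (-2.13 to -0.28, adjusted p = 0.166, edgeR quasi-likelihood with Benjamini-Hochberg), with 2 of 2 samples above vehicle and 3 of 3 below TC. The median of this difference was -0.06 over collagens and -0.04 over all genes, and the collagen median was 0.07 with library totals alone as scaling, where the median of all genes was 0.09.

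The responses under triacsin C and under etomoxir share no samples. Across the 24 collagens whose normalized counts averaged at least 50, their Pearson correlation was 0.82, and across all 34 it was 0.60, against 0.73 across all tested genes. Those are descriptions across genes, which are not independent replicates, and the groups shared the cell line and the protocol.

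**Figure D5:**
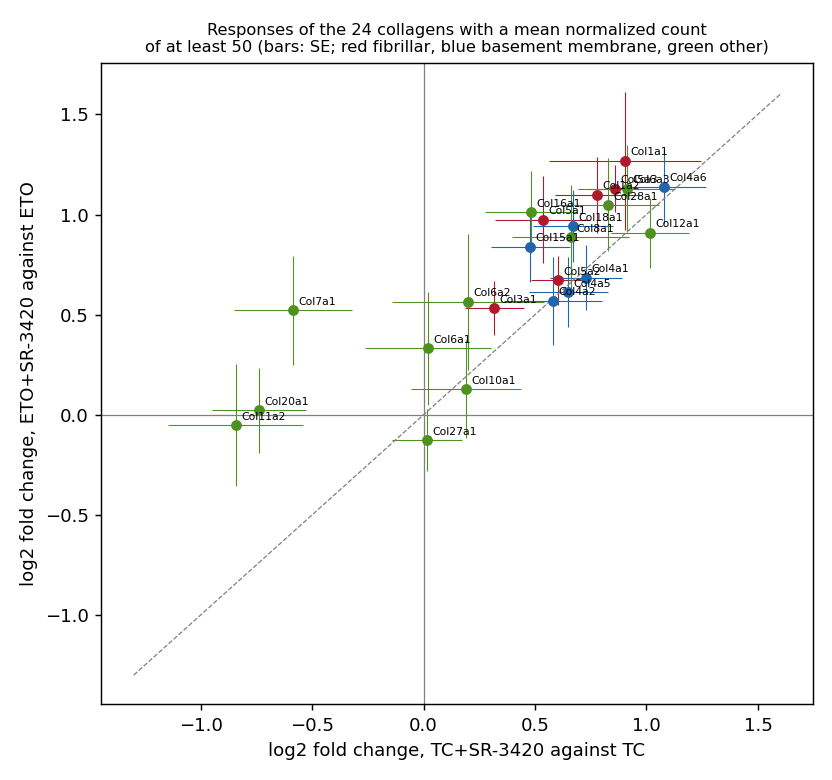
log2 fold change for TC+SR-3420 against TC (horizontal) and ETO+SR-3420 against ETO (vertical) for 24 collagens, with bars of 1 SE, colors by class and a dashed line of equality. Col7a1, Col11a2 and Col20a1 lie to the left of 0 on the horizontal axis, at -0.59, -0.84 and -0.74.

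Enzymes that make collagen were followed as a list of hydroxylases, chaperones and export factors, of which 18 were tested. Of these, 2 rose in SR-3420 against vehicle, 5 in TC+SR-3420 against TC and 7 in ETO+SR-3420 against ETO by edgeR (4.75%, 17.3% and 12.5% of all tested genes did). The count that fell in these 3 comparisons was 0 by edgeR, by DESeq2 and at an unadjusted p under 0.05. P4ha2 and P4ha1, the catalytic subunits of prolyl hydroxylase, had the largest rises under etomoxir (log2 fold change 1.45, SE 0.18, and 1.44, SE 0.27). The median log2 fold change of the list there was 0.47, against 0.01 for all genes.

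Propeptide removal and cross-linking of the fibers were covered by 12 tested genes. In the SR-3420 comparisons without inhibitor, under triacsin C and under etomoxir, 3, 5 and 9 of these rose (4.75%, 17.3% and 12.5% of all genes), and 1 fell under triacsin C (Tgm2, a transglutaminase, against 19.7% of all genes). Under etomoxir the largest rises were those of Loxl2, a lysyl oxidase (1.44, SE 0.17), and Adamts14, a procollagen peptidase (1.22, SE 0.33). The median was 0.91.

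Genes for collagen degradation and its inhibitors rose in 2, 5 and 7 of 12 tested in the same order, against 4.75%, 17.3% and 12.5% of all genes. Over all genes 2.79%, 19.7% and 12.8% fell, and in this list the numbers that fell were 0, 1 and 1 by edgeR (0, 1 and 2 by DESeq2, 1, 2 and 2 at an unadjusted p under 0.05). Timp3 and Timp1, inhibitors of metalloproteinases, led under etomoxir (1.62, SE 0.19, and 1.32, SE 0.15), and the metalloproteinase Mmp11 fell by 0.89 (SE 0.27). The median under etomoxir was 0.84.

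Basement membrane partners, mostly laminins and nidogens, rose in 3, 5 and 6 of 17 tested, where the shares of all genes were 4.75%, 17.3% and 12.5%. The count that fell was 0 in each by edgeR, 0, 0 and 1 by DESeq2, and 0, 1 and 1 at an unadjusted p under 0.05. Among those averaging at least 50 normalized counts, the laminin chain Lama5 led under etomoxir (1.17, SE 0.37), and the median of the whole list was 0.66. TC against vehicle had 1 higher and 1 lower, where 4.77% and 6.94% of all genes were.

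Interstitial matrix partners rose in 6, 10 and 15 of 23 tested (all genes 4.75%, 17.3% and 12.5%), and 0, 1 and 1 fell (all genes 2.79%, 19.7% and 12.8%) by edgeR and by DESeq2, as well as at an unadjusted p under 0.05. Thbs2, a matricellular thrombospondin, led under etomoxir (1.42, SE 0.22), followed by the adhesion-modulating protein Tnc (1.39, SE 0.30), while the leucine-rich proteoglycan Prelp fell by 0.71 (SE 0.11). The list's median was 0.94, and Postn also stands among the fibroblast markers. By edgeR the response to SR-3420 was lower with triacsin C than without it in 1 gene of this list and in 1 of the 7 tested receptors, against 1.27% of all genes.

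Collagen receptors were covered by 7 tested genes. With SR-3420 alone 0 passed by edgeR and 0 by DESeq2, and 2 had an unadjusted p under 0.05, while 1 rose and 1 fell under each inhibitor. Of all genes 17.3% rose and 19.7% fell under triacsin C, and 12.5% rose and 12.8% fell under etomoxir. Under etomoxir the collagen-binding kinase Ddr2 rose (1.11, SE 0.23) and the integrin chain Itga1 fell by 0.89 (SE 0.23). TC against vehicle again had 1 higher and 1 lower (all genes 4.77% and 6.94%).

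Of 23 genes of the TGF-beta and CTGF axis, a well-known inducer of collagen transcription, 6, 12 and 10 rose in the 3 SR-3420 comparisons, beside 4.75%, 17.3% and 12.5% of all genes. The count that fell was 0 by edgeR, by DESeq2 and at an unadjusted p under 0.05. Under etomoxir the largest rise was that of Tgif1, a corepressor of SMAD proteins (2.03, SE 0.22). The median was 0.55. In TC against vehicle 1 gene of this list rose and 3 fell, against 4.77% and 6.94% of all genes. In TC against vehicle the lists for making collagen, for cross-linking, for degradation and for interstitial partners had 0 calls each by edgeR, with 1, 0, 2 and 0 by DESeq2 and 1, 1, 4 and 1 at an unadjusted p under 0.05. In ETO against vehicle 0 of the 112 matrix genes passed by edgeR, where 0.0156% of all genes rose and 0.00782% fell. DESeq2 called 1 of the 112, where 0.0547% of all genes rose and 0.0782% fell. An unadjusted edgeR p under 0.05 was found in 3 of the 112 and in 283 of all 12786 genes.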

How the data were processed

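Gene counts of 16 RNA-seq samples were used as deposited. The authors aligned reads to mouse build mm9 with STAR v2.4.2a, kept 1 read per position and read length with HOMER (version not given for RNA-seq), and deposited raw counts per RefSeq gene made with iRNA-seq v1.1 (-count gene), not pooled over replicates. How strand was used is not stated. Counted lengths are below the genomic span of spliced genes (3976 bases for Col6a1). Total counts ran from 9452861 to 25670624 per sample.

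Of 20295 genes, filterByExpr by group left 12786. In edgeR 4.0.16 (R 4.3.3), libraries were scaled by TMM, and 1 quasi-likelihood model with a mean per group was tested for 5 differences between groups and 3 differences of responses. Calls needed a Benjamini-Hochberg adjusted p under 0.05 over all 12786 genes. Standard errors and 95% intervals come from that fit. The spread is estimated over all 6 groups, since vehicle and SR-3420 have 2 samples each. The code was tested on simulated data.

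The collagens and the lists of matrix genes and cell type markers were chosen with earlier results of these data known. Named collagens were all tested fibrillar and basement membrane chains, the 10 most abundant of the others, and others averaging at least 50 normalized counts with a called log2 fold change of at least 1. Of each list of matrix genes at most 4 were named, from the 2 with the largest called change in each direction under etomoxir among those averaging at least 50 normalized counts. Col8a2, Col9a3, Col11a1, Tgm2 and single marker genes fall outside these rules and were named after their values were seen.

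Alternatives were DESeq2 size factors, library totals alone, the Wald test of DESeq2 1.42.0, no filter, at least 10 counts in every sample, a fit of the compared groups alone, a block for the replicate number, each sample left out, and an offset for exon GC content (a spline with 5 degrees of freedom), which was added after the data were seen. Exon GC content used GENCODE M1, and motif windows used the mm9 genome. Python 3.11.15 with matplotlib 3.10.9 drew the figures.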

Additional observations from a re-analysis of the deposited data

How the results depend on the processing

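No log2 fold change of a named collagen reversed past the threshold in any of the 3368 values over all alternatives, and 15 of the 41 calls were kept in each of them. Leaving out samples aside, the count of collagens that rose in TC+SR-3420 against TC stayed between 11 and 18. Over the same alternatives the share of all genes ran from 12% (no filter) to 28.8% (GC offsets). Without TC replicate 2 the count was 10. Fitted on the compared groups only, collagens higher in SR-3420 against vehicle numbered 0 (0.37% of all genes), with fewer samples to estimate the spread, and those higher in ETO+SR-3420 against ETO numbered 8 (5.1%). Without a filter, 1 collagen was lower in TC+SR-3420 against TC, where Col11a2 missed the threshold (adjusted p = 0.0606 by edgeR, log2 fold change -0.78, lower in 3 of 3 samples, with adjusted p from 0.0026 to 0.154 over its alternatives).

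With GC offsets, chosen after the data were seen, 1 collagen (Col27a1) was lower in SR-3420 against vehicle and 1 (Col27a1) was higher in the response TC minus no inhibitor. Collagens higher in SR-3420 against vehicle numbered 9 (11.3% of all genes). The split over all genes moved too, from 607 higher and 357 lower to 1449 and 1364 in SR-3420 against vehicle, where library totals alone gave 467 and 572. Library totals alone shifted the median of all genes there from -0.004 to -0.12, and that of the collagens from 0.66 to 0.54. For the response TC minus no inhibitor the split moved from 158 and 163 to 782 and 537 with GC offsets. The cause was not tested.

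The labels do not say that a replicate number marks a shared experiment, so a block was tried only as an alternative. The paper states that its RNA-seq came from independent experiments, but not which samples shared one. In every group the collagen share of counts fell as the replicate number rose. Among same-number pairs from different groups, the correlation of residuals was over 0.1 in 27 of 35, averaged 0.385 (-0.19 in the 71 other pairs) and went as low as -0.275, and 10 of 16 samples correlated best with their own number. With the replicate block, collagens higher numbered 12 in SR-3420 against vehicle (11.1% of all genes) and 5 in TC against vehicle (12%), those lower in TC+SR-3420 against TC numbered 4 (28.7%), and 2 (Col7a1 and Col20a1) were lower in each of the responses TC minus no inhibitor (7.29%) and TC minus ETO (3.29%). Why the block changed these counts was not tested.

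Leaving out 1 sample at a time gave 1 to 3 collagens higher in SR-3420 against vehicle, 0 to 3 higher and 0 to 1 lower in TC against vehicle, 0 to 2 lower in TC+SR-3420 against TC and 13 to 17 higher in ETO+SR-3420 against ETO. A group of vehicle or SR-3420 is then a lone sample, assumed to vary like the other groups. Depth limits the minor chains: the 10 untested collagens had at most 10 counts in any sample.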
